A study of Solanum pimpinellifolium with 6 samples.

Results

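The comparison described here is that of leaf small RNAs (sRNAs) at the acutely elevated temperature with those at the moderately elevated temperature. Seedlings of the wild tomato LA2093 (S. pimpinellifolium), an accession described as heat-tolerant, were kept for 8 h at 40/40 °C (AET) or at 33/33 °C (MET), day and night, and a normal temperature of 26/18 °C (NT) was the baseline of the study. The second fully expanded leaf was taken, leaves of 5 seedlings being mixed as 1 replicate, and both heated groups received an extra watering each day. The 2 sRNA libraries of this comparison belong to a series of 6 libraries, 3 of sRNAs and 3 of degradome tags, with 1 library of each kind per temperature. All rows of the deposited miRNA list were used, taken once per distinct sequence. The list holds 759 entries and 629 distinct sequences, of which 599 had reads in the AET or the MET library. Of these, 509 were listed as conserved (related to a plant miRNA or precursor of miRBase) and 90 as predicted (named PC). Of the 509 conserved sequences, the list marks 106 as Yes for miRBase, 225 as Diff and 175 as New. The class is therefore not made of known mature miRNAs alone. The list holds no mRNA, so the leaf label could not be checked against marker genes. Since leaf is a mixture of cells, fewer cells of a type and less RNA per cell cannot be told apart.

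Plant miRNAs are cut by DICER-LIKE 1 from a hairpin precursor, in which the mature strand pairs with a partner strand from the other arm. Loaded into ARGONAUTE proteins, they guide the cleavage of mRNAs with a nearly complementary site, and many conserved families act on transcription factors of leaf growth, on metal-binding proteins or on disease resistance genes. Sequences of 24 nt are mostly made by other DICER-LIKE proteins and are linked to DNA methylation.

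The sequences on which the comparison turned are shown first, from 5′ to 3′ as DNA letters, with the seed (bases 2 to 8) in capitals. The miR319 and miR159 families, close relatives with different targets, are shown because nearly all their well-read sequences were lower in the AET library.
spi-miR319a: tTGGACTGaagggagctcctt
spi-miR319a, other form: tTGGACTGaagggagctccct
spi-miR319-3p_stu: tTGGACTGaagggtttccttc
spi-miR319b-p5: aTCTCCCGactcattcattca
spi-miR159_csi: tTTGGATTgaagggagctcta
spi-miR159-p5: aGCTGCTGacctatggattcc
Large increases among the conserved sequences were seen in sequences named after miRNAs of other species, and the following have no genome position in the list.
spi-miR7972_rgl: tTGTCAGGcttgtgattctcc
spi-miR6145e_nta: aTTGTTACatgtagcactggct
spi-miR6146b_nta: tTTGTCCAatgaaatacttatc
spi-miR6149a_nta: tTGATACGcacctgaatcggc
spi-miR169a_ptc: cAGCCAAGgatgacttgccgactt

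Sequencing depth was similar in the 2 libraries. The paper gives more valid reads for AET than for MET, but fewer unique valid reads. The listed sequences summed to 394910 raw reads in the AET library and 424963 in the MET library, with reads for 515 sequences in AET and 558 in MET. Raw reads are estimated counts, because a read with several matches was shared among them, and normalized reads are raw reads times 1 factor per library (0.898 in AET and 0.833 in MET). The most abundant sequence, spi-miR166a, took 56.2% of these reads in the AET library and 52.5% in the MET library. A sequence was called higher or lower where its normalized reads, set against all other listed reads, gave a p of 0.05 or less in the chi-square test and also in Fisher's test (exact, two-sided) and the log2 ratio, AET over MET, was at least 1 in size. With 1 library per temperature there is no replicate check, so the tests compare these libraries and not the temperatures, and every 95% interval covers counting error only.

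The AET library differed from the MET library about as often upward as downward over the whole list, with more lower than higher calls among the conserved sequences. Of 599 sequences, 59 were called higher (9.85%) and 64 lower (10.7%), and 476 were not called. Among the conserved sequences 34 of 509 were called higher (6.68%) and 57 lower (11.2%). Among the predicted sequences 25 of 90 were called higher (27.8%) and 7 lower (7.78%). Over the 298 sequences with at least 10 normalized reads in either library, the median log2 ratio was 0.01, with quartiles of -0.80 and 0.74. It was -0.23 for 215 conserved and 0.69 for 83 predicted sequences. The classes cannot be set beside each other by these values, because all 90 predicted sequences in the comparison reach 10 normalized reads in at least 1 of the NT, MET and AET libraries, and 31 of them do so in AET alone. Chosen instead by at least 10 normalized reads in NT, a choice made after the data had been seen, 4 of 46 predicted sequences were called higher and 4 lower with a median of 0.13, and 12 of 188 conserved sequences were called higher and 39 lower with a median of -0.28. With Benjamini-Hochberg adjustment over all 599 sequences, 37 were called higher and 51 lower. Scaling to the valid reads of the libraries moves every log2 ratio by -0.29, so that ratios between 0 and 0.29 turn negative. Calls were found at low and middle read numbers: of the 23 sequences with a mean of at least 1000 normalized reads, 1 was called, and of the 58 with a mean of 100 to 1000, 12 were called, all of them lower.

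**Figure D1:**
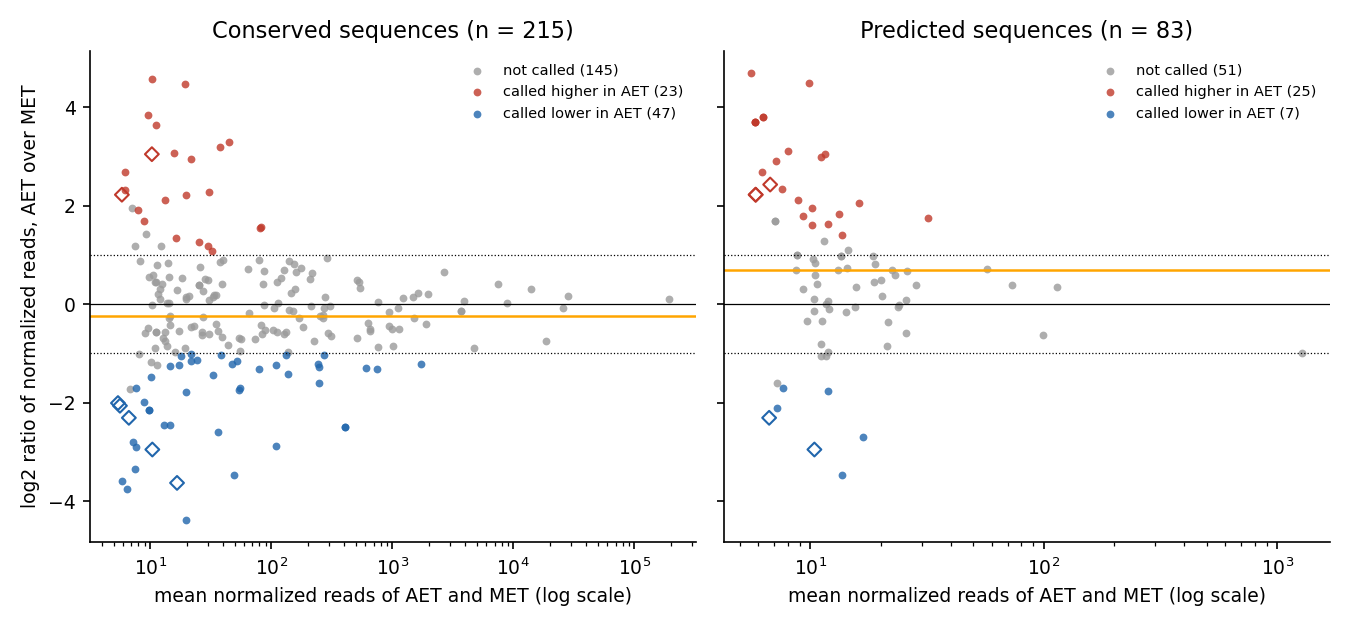
Log2 ratio of normalized reads, AET over MET, against the mean normalized reads of both libraries (log axis) for 215 conserved and 83 predicted sequences with at least 10 normalized reads in either library. Points are sequences, diamonds are bounds for sequences at 0 reads in one library, dotted lines mark a ratio of 2 in either direction and the orange line is the median (-0.23 and 0.69), and calls above 100 normalized reads lie only below 0.

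The reads themselves were held by a few families that were nearly level between the libraries. The HD-ZIP III-targeting miR166 family (regulators of leaf polarity) gave 66.1% of the listed reads in the AET library and 62.8% in the MET library, and its summed log2 ratio was 0.08 (95% interval 0.07 to 0.09). The main spi-miR166a sequence had 222136.5 reads in AET and 222946 in MET, a log2 ratio of 0.10. The NLR-targeting miR482 group was next, with 16.4% of the reads in AET and 15.7% in MET. Its leading sequence, spi-miR482e-3p, had 33400 reads in AET and 32268 in MET, a log2 ratio of 0.16 (0.14 to 0.18). Neither was called, and their direction depended on the scaling: on valid reads the log2 ratios were -0.21 for the miR166 sum, -0.18 for spi-miR166a and -0.13 for spi-miR482e-3p.

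The miR319 family, which acts on TCP transcription factors that limit cell division in the leaf, was the group with the lowest median. All 5 of its sequences with at least 10 normalized reads were called lower. Of all 11, 6 were called lower (54.5%, beside 11.2% of all conserved sequences) and none higher. The median log2 ratio was at most -2.95, beside -0.23 for all conserved sequences. It is an upper bound, that of spi-miR319c-5p, which had 0 reads in AET. The summed reads of the family gave a log2 ratio of -2.59 (-2.78 to -2.41). Both forms of spi-miR319a had 137 reads in AET and 826.5 in MET, a log2 ratio of -2.49 (-2.76 to -2.22). They differ at the 3′ end and were given equal reads in each library, so they count as 1 measurement. spi-miR319-3p_stu had 9 reads in AET and 108 in MET, a log2 ratio of -3.48 (-4.64 to -2.50). These 3 sequences share the seed shown in capitals above, and each was several times scarcer in the AET library.

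Sequences listed for the 5′ arm of miR319 hairpins were scarce in AET too. spi-miR319b-p5 had 0 reads in AET and 40 in MET, and spi-miR319c-5p had 0 in AET and 25 in MET. With 3 reads taken as the floor in place of 0 in a library, these give log2 ratios of at most -3.63 and at most -2.95. The hairpin of miR319c, which lies at chr3:49898455-49898649 on the plus strand (of which build, the sources used here do not say), is shown with both strands in capitals, to place the unread 5′ strand beside the miR319a strand of its 3′ arm.
miR319c hairpin: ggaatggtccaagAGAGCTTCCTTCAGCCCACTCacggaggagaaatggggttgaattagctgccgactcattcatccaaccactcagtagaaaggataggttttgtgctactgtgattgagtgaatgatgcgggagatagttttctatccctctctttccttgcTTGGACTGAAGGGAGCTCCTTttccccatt

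The miR159 family, which acts on GAMYB transcription factors, was lower as well but by less. Of 7 sequences with reads 5 were called lower and none higher (71.4% lower, beside 11.2% of all conserved sequences). The median log2 ratio of the 6 with at least 10 normalized reads was -1.37. spi-miR159_csi, by far the most abundant, had 15369.5 reads in AET and 27945.8 in MET, a log2 ratio of -0.75 (-0.78 to -0.73), which missed the threshold of a call. The hairpin strands spi-miR159-p5 and spi-miR159-p3 passed it. spi-miR159-p5 had 480 reads in AET and 1294 in MET, a log2 ratio of -1.32 (-1.48 to -1.17). spi-miR159-p3 had 137 reads in AET and 445 in MET, a log2 ratio of -1.59 (-1.88 to -1.31). Shorter forms with the miR159 seed were lower by more than the main form: the 20 nt spi-miR159a-3p_zma had 83 reads in AET and 238 in MET (log2 ratio -1.41, -1.79 to -1.05), and the 19 nt spi-miR159 had 28 in AET and 100.5 in MET (log2 ratio -1.74, -2.39 to -1.11). These shorter forms are the main sequence cut short at its 3′ end.

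Other regulators of development, miR172, miR164, miR169 and miR171, held a few calls each. Of their sequences with at least 10 normalized reads, 4 of 4, 2 of 3, 5 of 9 and 4 of 7 had negative log2 ratios. Over all conserved sequences these were 123 of 215. In the AP2-targeting miR172 group, which promotes phase change and flowering, 1 of 7 sequences was called lower (14.3%, beside 11.2% of all conserved sequences). It had the lowest log2 ratio among sequences of at least 10 normalized reads in either library that were read in both. spi-miR172d-3p_stu had 2 reads in AET and 45 in MET, a log2 ratio of -4.38 (-7.47 to -2.45). Its near copy spi-miR172a had 68.5 reads in AET and 84 in MET, a log2 ratio of -0.19 (-0.68 to 0.28). Both are shown because they share the seed and differ in their outer bases.
spi-miR172d-3p_stu: gGAATCTTgatgatgctgcag
spi-miR172a: aGAATCTTgatgatgctgcat

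The NAC-targeting miR164 group held 2 sequences called lower of 7, beside 11.2% of all conserved sequences. Its main member spi-miR164a-5p, a regulator of organ boundaries and ageing, had 200 reads in AET and 438 in MET, a log2 ratio of -1.02 (-1.27 to -0.78) that became -0.98, and not called, with the median-ratio scaling. In the NF-YA-targeting miR169 group 3 of 17 sequences were called lower and 1 higher (17.6% and 5.88%, beside 11.2% and 6.68% of all conserved sequences). spi-miR169f-p5_nta had 50 reads in AET and 135 in MET (log2 ratio -1.33), while spi-miR169a_ptc had 23 reads in AET and 0 in MET, a log2 ratio of at least 3.05. In the GRAS-targeting miR171 group 2 of 15 sequences were called lower (13.3%, near the 11.2% of all conserved sequences). These were spi-miR171a-5p_stu, with 97 reads in AET and 215 in MET, and spi-miR171c-p5, with 4.5 in AET and 26.5 in MET. The call of spi-miR171a-5p_stu ended with the median-ratio scaling (log2 ratio just short of -1). Sequences matched to sites in HAM3-type GRAS genes in the degradome had ratios of both signs and were not called. Of these, spi-miR171d had 32 reads in AET and 26.5 in MET, a log2 ratio of 0.38 (-0.39 to 1.21), and spi-miR171b-p3_mes had 188.5 in AET and 339 in MET, a log2 ratio of -0.74 (-1.01 to -0.48).

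The auxin-linked miRNAs of the ARF-targeting group had negative ratios under the threshold of a call. All 8 miR160 and miR167 sequences with at least 10 normalized reads had negative log2 ratios, between -0.97 and -0.03, and 0 of 16 were called by both tests with the fold threshold. spi-miR167a, which targets ARF6- and ARF8-type genes, had 3885 reads in AET and 4624 in MET, a log2 ratio of -0.14 (-0.21 to -0.08). In the TAS3 and auxin receptor group (miR390 and miR393) 3 of 9 sequences were called lower (33.3%, beside 11.2% of all conserved sequences). spi-miR393-5p_stu, which acts on TIR1-type auxin receptors, had 17 reads in AET and 40 in MET, a log2 ratio of -1.13 (-2.04 to -0.28). Within miR390, the trigger of trans-acting siRNAs from TAS3, the canonical strand and a sequence from another hairpin had ratios of opposite sign.
spi-miR390a-5p: aAGCTCAGgagggatagcacc
spi-miR390a-p5_hex: tAAGAAGAataagctcaggat
spi-miR390a-5p had 292 reads in AET and 203 in MET, a log2 ratio of 0.63 (0.37 to 0.90) that was not called. spi-miR390a-p5_hex had 163 reads in AET and 407 in MET, a log2 ratio of -1.21 (-1.48 to -0.95). These sequences have different seeds.

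The SPL, HD-ZIP III and GRF groups held calls in both directions or upward. In the SPL-targeting miR156 and miR157 group, which marks the juvenile phase, 1 of 15 sequences was called higher and 1 lower. These are 6.67% each, beside 6.68% higher and 11.2% lower of all conserved sequences. spi-miR156a had 1049.5 reads in AET and 1605.5 in MET, a log2 ratio of -0.51 (-0.62 to -0.39). In the miR166 family 3 of 21 sequences were called higher (14.3%, beside 6.68% of all conserved sequences) and 1 lower. Each of the 3 higher calls depended on the settings. spi-miR166a-p5 (log2 ratio 1.69) and the 22 nt spi-miR166c-3p (2.69) lost theirs with Benjamini-Hochberg adjustment. spi-miR166m_gma (1.25) lost its call on valid reads (0.97). The 1 called lower, spi-miR166a-5p_gma, had 11.5 reads in AET and 75 in MET, a log2 ratio of -2.60 (-3.55 to -1.65). In the GRF-targeting miR396 group, which restrains growth-regulating factors, spi-miR396b had 3948 reads in AET and 4684 in MET, a log2 ratio of -0.14 (-0.20 to -0.08). There 1 of 8 sequences, the partner strand of spi-miR396b, was called higher (12.5%, beside 6.68% of all conserved sequences). Outside these lists spi-miR394-5p had 10 reads in AET and 37 in MET (log2 ratio -1.78), and spi-miR530_stu had 29 in AET and 101 in MET (log2 ratio -1.69, -2.34 to -1.08).

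**Figure D2:**
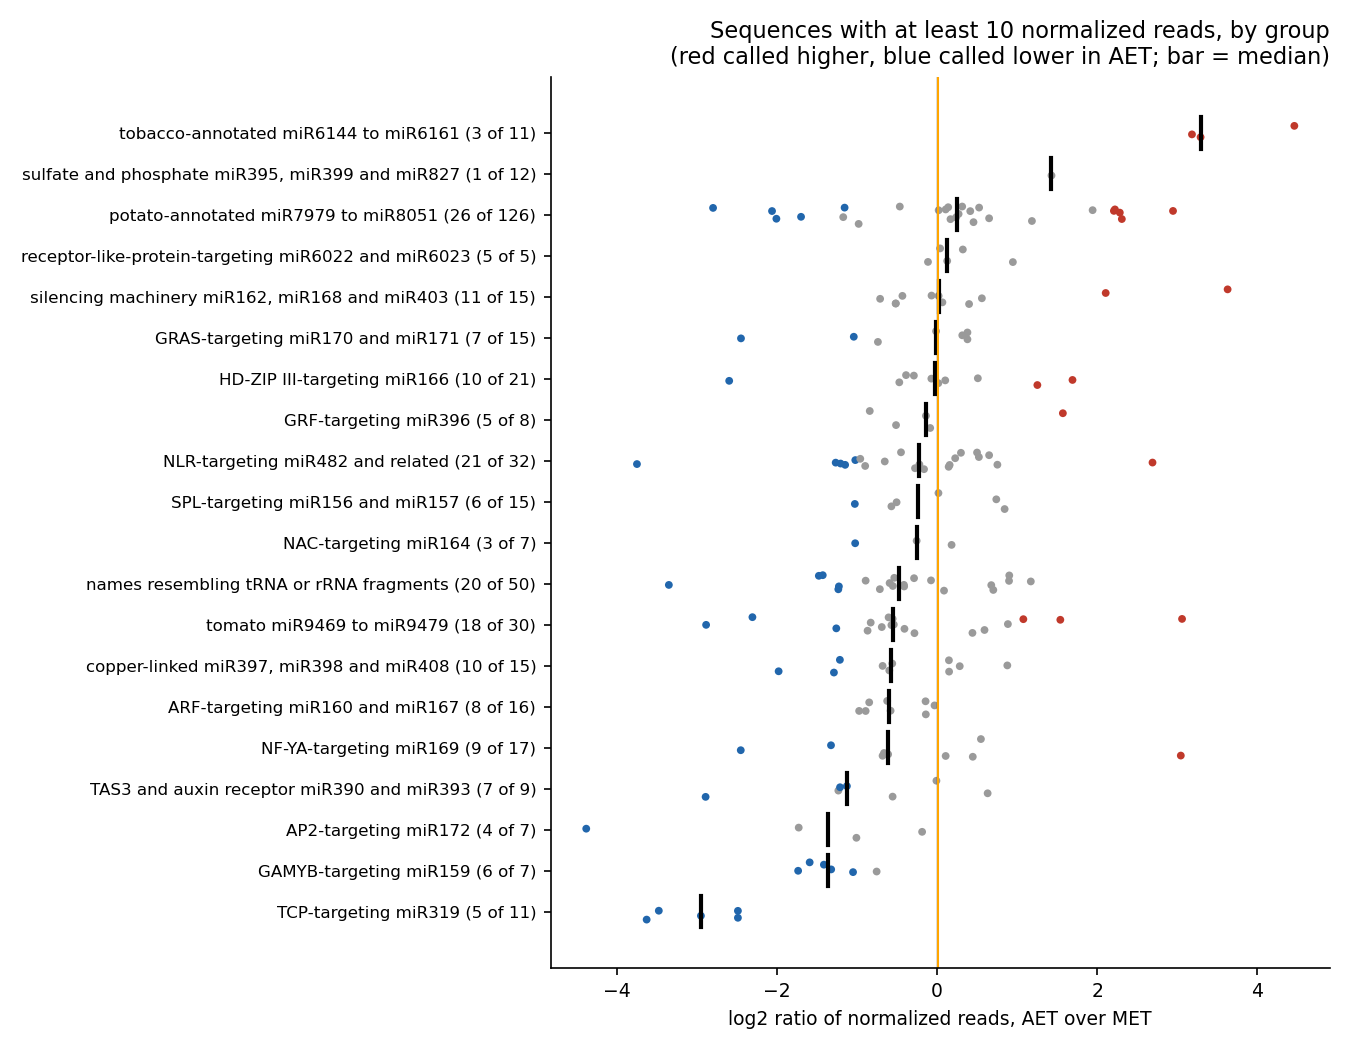
Log2 ratios of normalized reads, AET over MET, in 20 groups of conserved sequences, each point being 1 sequence with at least 10 normalized reads in either library (number plotted and number tested in brackets). Black bars are group medians and the orange line is the median of all sequences. The miR319 group lies lowest at -2.95, the upper bound of a sequence with 0 reads in AET. The tobacco-annotated group at 3.29 holds 3 sequences that reached 10 normalized reads in AET and not in MET.

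The copper-linked miRNAs, which act on laccases, copper/zinc superoxide dismutases and small blue copper proteins, gave 3 sequences called lower and none higher of 15 (20.0% lower, beside 11.2% of all conserved sequences). The laccase-targeting spi-miR397 had 389 reads in AET and 1024 in MET, a log2 ratio of -1.29 (-1.46 to -1.12). spi-miR398a-3p_stu had 1742 reads in AET and 1691 in MET, a log2 ratio of 0.15 (0.05 to 0.25). The name spi-miR398b-3p_stu, which the degradome list pairs with a site in CSD1 (a copper/zinc superoxide dismutase), stands for a pair of sequences. One had 119 reads in AET and 189 in MET, a log2 ratio of -0.56 (-0.90 to -0.22) that was not called, and the other had 4 in AET and 17 in MET, a log2 ratio of -1.98 (-4.01 to -0.36) that was called lower. spi-miR408b-3p_stu had 439 reads in AET and 758 in MET, a log2 ratio of -0.68 (-0.85 to -0.51), which was not called. Of the sequences with over 100 reads named here for the copper group, that of miR397 alone was called. The nutrient group of miR395, miR399 and miR827 was hardly read, with 1 of 12 sequences reaching 10 normalized reads.

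The miRNAs that act on the silencing machinery itself gave no call on their abundant sequences. spi-miR168a-5p, which targets AGO1, had 9398 reads in AET and 7673 in MET, a log2 ratio of 0.40 (0.36 to 0.44). spi-miR162, which targets DCL1, had 4498 reads in AET and 4627 in MET, a log2 ratio of 0.07 that was -0.22 on valid reads. Of 15 sequences in the group 2 were called higher and none lower (13.3% higher, beside 6.68% of all conserved sequences). One was a form of the AGO2-targeting miR403, spi-miR403-3p_ath, with 23 reads in AET and 2 in MET, a log2 ratio of 3.63 (1.61 to 6.76). The main form, spi-miR403-3p, had 1221 reads in AET and 1380 in MET, a log2 ratio of -0.07 (-0.18 to 0.04). The forms are printed together because a rare near copy and its common relative differed so widely.
spi-miR403-3p_ath: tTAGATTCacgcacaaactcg
spi-miR403-3p: cTAGATTCacgcacaagctcg

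Among the miRNAs that act on resistance genes of the NLR class, calls went in both directions and the most read sequences were not called. Of 32 sequences 2 were called higher and 5 lower (6.25% and 15.6%, beside 6.68% and 11.2% of all conserved sequences). The median log2 ratio was -0.22, beside -0.23 for all conserved sequences. spi-miR482a had 3666 reads in AET and 2516 in MET, a log2 ratio of 0.65 (0.58 to 0.72), and spi-miR482b had 17098 in AET and 14978 in MET, a log2 ratio of 0.30. spi-miR6027-5p had 1163 reads in AET and 2890 in MET, a log2 ratio of -1.21 (-1.30 to -1.11). The degradome list matches its sites for miR6027 to the other strand, spi-miR6027-3p. That strand had 887 reads in AET and 1306 in MET, a log2 ratio of -0.45 that was not called. spi-miR6026 had 145 normalized reads in AET and 350.0 in MET, a log2 ratio of -1.27, and its partner strand spi-miR6026-p5 was called lower too (log2 ratio -1.02), a call that ended with the median-ratio scaling (-0.98) and with Benjamini-Hochberg adjustment. spi-miR6024 (21 nt) had 3706 reads in AET and 7442 in MET, a log2 ratio of -0.90 (-0.96 to -0.84) that missed the threshold. Summed over sequences, miR482 had a log2 ratio of 0.22 (0.20 to 0.23) and miR6024 one of -0.90 (-0.95 to -0.84). None of the 5 sequences of the miR6022 and miR6023 group, which acts on receptor-like protein genes, was called, and their median was 0.13.

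Families known from tomato and its relatives held calls in both directions. Of 30 sequences named miR9469 to miR9479, 3 were called higher and 4 lower (10.0% and 13.3%, beside 6.68% and 11.2% of all conserved sequences). spi-miR9474-p3 had 29 reads in AET and 231 in MET, a log2 ratio of -2.89 (-3.50 to -2.33). spi-miR9478-p5 had 31 reads in AET and 4 in MET, a log2 ratio of 3.06 (1.56 to 5.03). Of 126 sequences with names of the potato series miR7979 to miR8051, 26 reached 10 normalized reads. Of the 126, 9 were called higher and 9 lower (7.14% each, beside 6.68% and 11.2% of all conserved sequences). The miR8031 family, picked out after its values were seen, had 4 of 10 sequences called higher and none lower. The share called higher was 40%, beside 6.68% of all conserved sequences. The family had a summed log2 ratio of 1.69 (1.22 to 2.17). Its sequences overlap or are near copies, and 5 of them are shown together for that reason.
spi-miR8031-p5_stu: aCACCTCAactaggacttgtacct
spi-miR8031-p3_stu: aCACCTCAactgagacttgtacct
spi-miR8031-p3_stu, other form: aCACCTTAactaagacttgtacct
spi-miR8031_stu: tTAGACACctcaactaggacttgt
spi-miR8031_stu, other form: tTAGACACctcaactgagacttgt
The first had 56.5 reads in AET and 12.5 in MET, a log2 ratio of 2.28 (1.41 to 3.37), and the second had 36.5 in AET and 8.5 in MET, a log2 ratio of 2.21 (1.15 to 3.59). The third had 13 reads in AET and 0 in MET, a log2 ratio of at least 2.22. The fourth had 11.5 in AET and 2.5 in MET, and its call ended with Benjamini-Hochberg adjustment. The last, not called, had 9 in AET and 10.5 in MET. Of the 4 sequences that start with ACACCT 3 were called higher, and the other one had 3.5 reads in AET and 1.5 in MET. spi-miR8021-p5_stu, of another family, had 43 reads in AET and 6 in MET, a log2 ratio of 2.95 (1.71 to 4.47).

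Sequences named after tobacco miRNAs of the miR6144 to miR6161 series, for which no role is given here, held 4 called higher and none lower of 11. The share called higher was 36.4%, beside 6.68% of all conserved sequences. The 3 that reached 10 normalized reads did so in AET and not in MET, so that their median of 3.29 is no measure of the group, and 2 of them also reached it in NT. spi-miR6149a_nta had 91 reads in AET and 10 in MET, a log2 ratio of 3.29 (2.35 to 4.40). spi-miR6146b_nta had 76 reads in AET and 9 in MET, a log2 ratio of 3.19 (2.19 to 4.37). spi-miR6145e_nta had 41 reads in AET and 2 in MET, a log2 ratio of 4.47 (2.52 to 7.56). Each was low in the MET library and several times more frequent in the AET library. spi-miR7972_rgl, with 22 reads in AET and 1 in MET, had a log2 ratio of 4.57 (1.94 to 9.93), the highest among conserved sequences of at least 10 normalized reads in either library that were read in both. Of all 25 conserved sequences with the tobacco suffix nta, 7 were called higher and 1 lower, beside 34 and 57 of all 509. Conserved sequences without a genome position in the list gave 9 higher and 7 lower of 103, and those with one gave 25 higher and 50 lower of 406. Among sequences of 21 nt without a position, 6 of 36 were called higher and none lower, while with a position 7 were called higher and 29 lower. What part the assignment of reads to names without a position had in these results was not tested.

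The predicted sequences called higher in the AET library rested on few reads each. Of these 25, 21 reached 10 normalized reads in AET alone of the 3 libraries, so they could enter the list only where AET was high, and their number is no measure of the class. Among the 25, 18 were 24 nt long, and 3 had no read in the MET library. PC-10-5p had 12 reads in AET and 0.5 in MET, a log2 ratio of 4.69 with a lower limit of 1.58. PC-19-5p had 21 reads in AET and 1 in MET, a log2 ratio of 4.50 (1.86 to 9.87). PC-83-3p had the most reads among those called higher, 55 in AET and 17.5 in MET, a log2 ratio of 1.76 (0.93 to 2.57). The 7 called lower included PC-15-5p, with 2.5 reads in AET and 30 in MET, and PC-42-5p, with 5 in AET and 35 in MET. These sequences share a run of 21 bases, although the list places them on different chromosomes, so their reads may not be independent.
PC-15-5p: aGGTTGATatacgttactgtaagt
PC-42-5p: aTTAGGTTgatatacgttactgta
PC-19-5p: aATACTCGtaaaacatttacggat
PC-49-3p: cTATGAGAtaagttcaacgtg
PC-49-3p, the only predicted sequence with over 1000 normalized reads on average, had 951 reads in AET and 2045 in MET. Its log2 ratio of -0.997 (-1.11 to -0.89) lay just short of the threshold, so it was not called. The predicted class summed to 2683.5 reads in AET and 3485.5 in MET. Because this 1 sequence held a large part of them, the summed log2 ratio of the class was -0.27 (-0.34 to -0.20) although its median was 0.69.

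Length, which the choice of sequences did not use, went with the sign of the median among conserved sequences. Among conserved sequences with at least 10 normalized reads the median log2 ratio was -0.50 at 19 nt, -0.58 at 20 nt, -0.47 at 21 nt, -0.11 at 22 nt, 0.34 at 23 nt and 0.44 at 24 nt. At 21 nt 13 of 193 sequences were called higher and 29 lower, and at 24 nt 12 of 131 were called higher and 8 lower. The summed reads of conserved 24 nt sequences gave a log2 ratio of 0.41 (0.32 to 0.50), while those of 21 nt gave -0.02 (-0.03 to -0.01). Chosen by at least 10 normalized reads in NT, the conserved medians were -0.47 over 98 sequences of 21 nt and 0.36 over 22 of 24 nt. Predicted sequences had medians of 0.14 over 10 at 21 nt, 1.40 over 3 at 22 nt, 0.84 over 9 at 23 nt and 0.59 over 61 at 24 nt, which follow no order of length. The summed reads of conserved sequences gave log2 ratios of -0.44 at 19 nt, -0.44 at 20 nt, 0.16 at 22 nt and 0.08 at 23 nt. Like the medians, these sums were lowest at the short lengths and highest at 24 nt. Most reads of 21 nt were those of miR166. Sequences whose names resemble fragments of tRNA or rRNA, a list made with their values known, gave 5 called lower and none higher of 50 (10.0% lower, near the 11.2% of all conserved sequences), with a summed log2 ratio of -0.22 (-0.30 to -0.15) and 0.65% of the reads in AET against 0.77% in MET. Whether RNA breakdown had a part in the differences between the libraries was not tested.

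**Figure D3:**
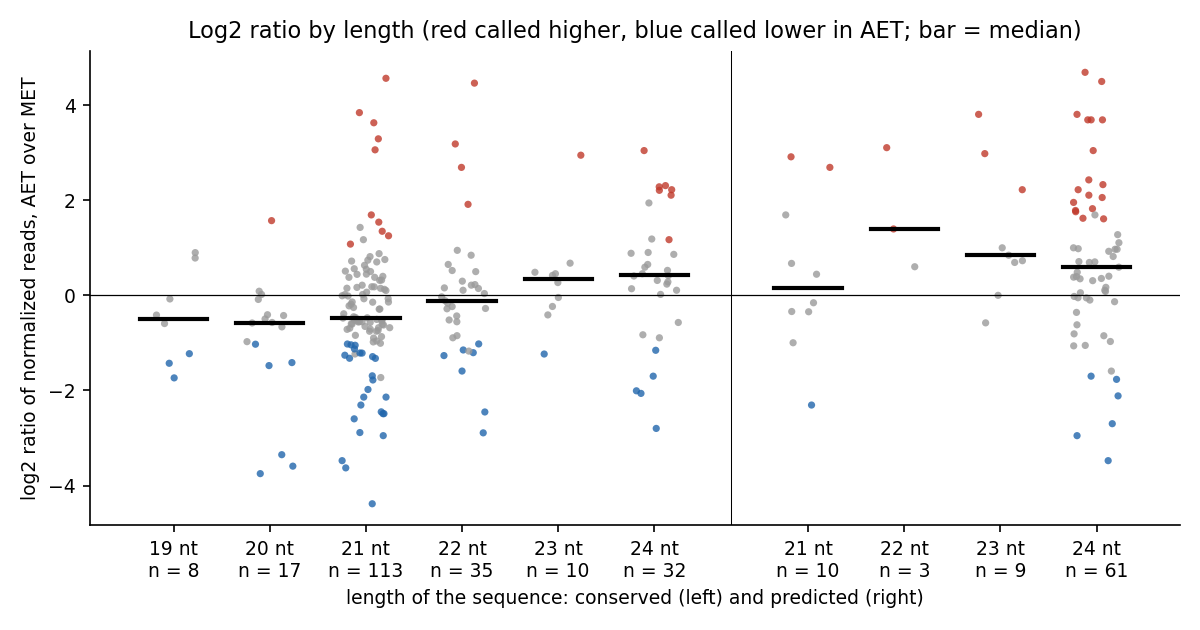
Log2 ratio of normalized reads, AET over MET, by sequence length for conserved (19 to 24 nt, left) and predicted (21 to 24 nt, right) sequences with at least 10 normalized reads in either library, with n below each. Points are sequences, red called higher and blue called lower in AET, bars are medians, and the conserved median is -0.47 at 21 nt and 0.44 at 24 nt.

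Reads found in 1 library alone were few. Of all sequences, 41 had reads in AET but not in MET and 84 in MET but not in AET, with medians of 4 and 2 reads in the library that had them. Of those, 10 were called higher and 15 lower. Of these sequences, 21 had over 3 reads in AET and 31 over 3 reads in MET, 3 reads being the limit that a count of 0 allows (2.69 normalized reads in AET and 2.50 in MET). For those with 3 reads or fewer a difference was not detectable at this depth.

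Listed sequences of 1 hairpin were often unlike in their ratio, a comparison that no scaling of the libraries can change. In 134 hairpins with at least 2 listed sequences, 55 pairs had at least 10 raw reads for each strand in 1 of the libraries. Strands were taken as opposite arms where they shared no run of 12 or more bases, and their place on the hairpin was not checked. Some sequences, such as spi-miR168a-5p and spi-miR319a, stand in more than 1 pair with reads that are not split by hairpin. The pairs are therefore not all independent. The difference in log2 ratio between the strand with fewer reads and the one with more had an exact conditional 95% interval that excluded 0 in 28 pairs, 13 with the rarer strand relatively higher in AET and 15 with it relatively lower. These intervals were not adjusted for the number of pairs, and the measure was chosen after the data had been seen. Both strands were called lower in 4 pairs, 1 strand alone was called in 19, and in 1 pair the strands were called in opposite directions. In that pair spi-miR9479-5p had 49 reads in AET and 25 in MET, and spi-miR9479-3p had 0 in AET and 16 in MET.

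The clearest pairs by reads came from known families. In miR397, where spi-miR397 was called lower, spi-miR397-p3 had 323 reads in AET and 314 in MET, so that the rarer strand was 1.44 higher on the log2 scale than its partner (1.15 to 1.72). In miR396, spi-miR396-3p_stu had 138 reads in AET and 50 in MET while spi-miR396b was level, a difference of 1.71 (1.23 to 2.21). In miR9470, spi-miR9470-p5 had 135 reads in AET and 50 in MET, and spi-miR9470-3p had 1821 in AET and 2602 in MET, a difference of 1.95 (1.46 to 2.45). In miR398a the rarer strand went the other way: spi-miR398a-5p_stu had 32 reads in AET and 80 in MET beside a level 3′ strand, a difference of -1.36 (-2.01 to -0.75). Its share of the pair's reads was 1.80% in AET and 4.52% in MET. In miR159, by contrast, both strands were lower together, and their difference was -0.27 (-0.60 to 0.05). The hairpins of miR396b (chr7:2628749-2628897, minus strand) and miR398a (chr11:47382919-47383009, minus strand) are given with both strands in capitals.
miR396b hairpin: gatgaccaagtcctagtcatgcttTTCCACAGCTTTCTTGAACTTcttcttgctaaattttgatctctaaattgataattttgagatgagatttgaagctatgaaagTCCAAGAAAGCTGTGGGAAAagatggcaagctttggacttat
miR398a hairpin: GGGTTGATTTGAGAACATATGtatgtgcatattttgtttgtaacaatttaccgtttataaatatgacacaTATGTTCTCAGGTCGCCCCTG

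**Figure D4:**
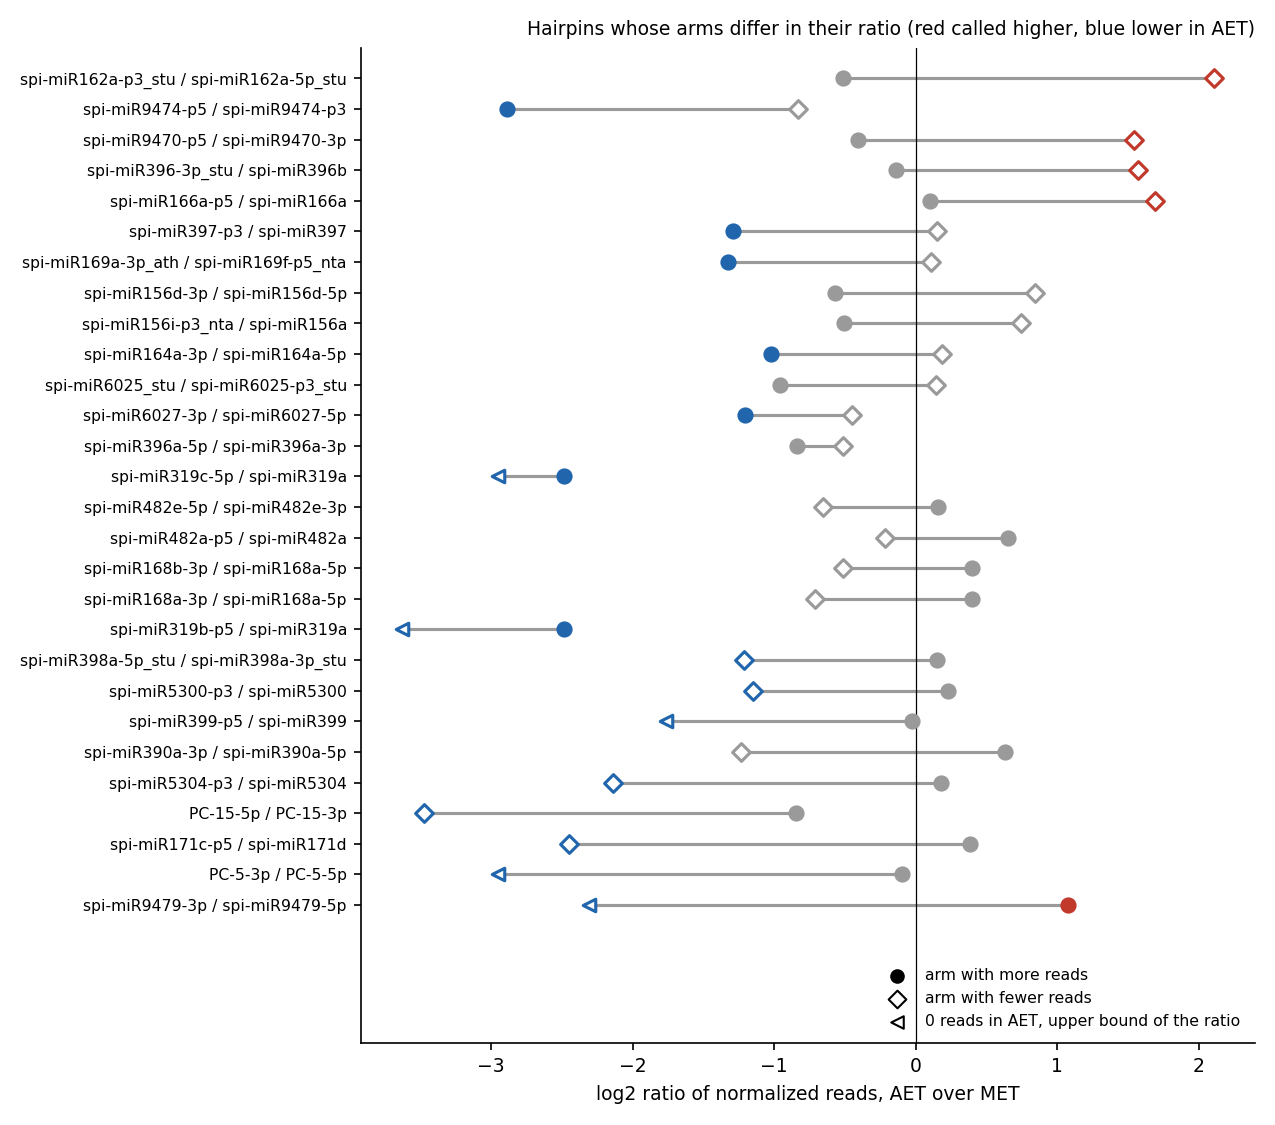
Log2 ratios of normalized reads, AET over MET, of the strands in 28 pairs taken as opposite hairpin arms whose ratios differed with a 95% interval that excludes 0. Circles are the strand with more reads, diamonds the one with fewer, triangles upper bounds for strands with 0 reads in AET, red means called higher and blue called lower, and the rarer strand lies to the right in 13 pairs and to the left in 15.

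The NT library places the called sequences on a scale of 3 temperatures. Of 47 conserved sequences called lower with at least 10 normalized reads, NT was nearer to MET on the log scale for 35 and nearer to AET for 12. Among the 145 that were not called these numbers were 76 and 69. Of 23 conserved sequences called higher, NT was nearer to MET for 9 and nearer to AET for 14. It lay between the heated libraries for 20 of these 23, for 27 of the 47 called lower and for 39 of the 145 not called. A call requires a gap between AET and MET, so called sequences leave NT more room between them by choice. Among those called lower, NT was above both for 15 and below both for 5. spi-miR319a was lowest in AET, with 896 reads in NT, 826.5 in MET and 137 in AET, or 1191, 689 and 123 normalized reads. spi-miR6149a_nta had 16 reads in NT, 10 in MET and 91 in AET. spi-miR166m_gma was called higher in AET than in MET, with 39.8 and 18 reads, although NT had 245.5.

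**Figure D5:**
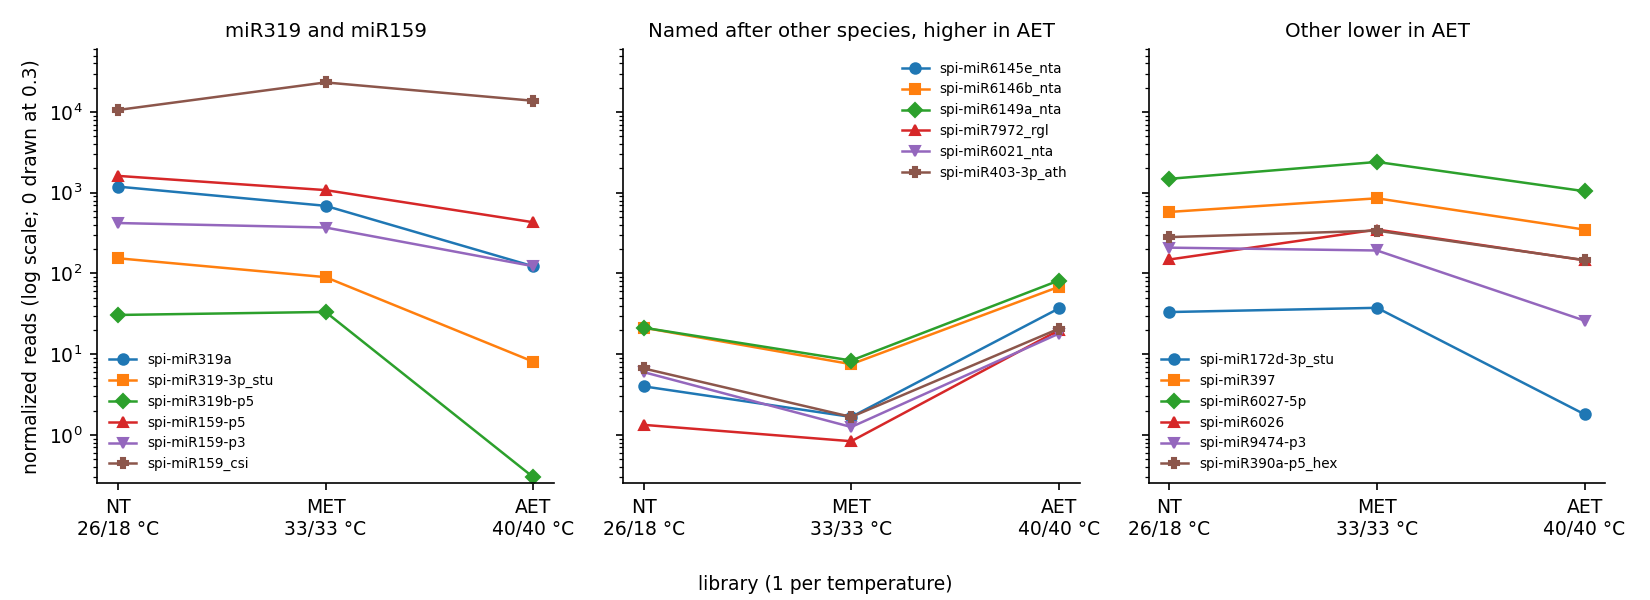
Normalized reads (log axis, 0 drawn at 0.3) of 18 sequences in the NT, MET and AET libraries, 1 library per temperature, joined by lines to guide the eye. Sequences of miR319 are lowest in AET, the 6 sequences named after other species (such as spi-miR6149a_nta) are lowest in MET and highest in AET, and those on the right are lower in AET than in MET.

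The degradome, in which the cut ends of mRNAs are sequenced, was too thin to set cleavage beside these changes. Of 233 distinct sites matched to listed miRNAs, 179 had tags in the AET or the MET degradome library, and 2 were called by Fisher's exact test with a fold of 2 (1.12%), both higher. Neither belongs to a called sequence. They were CPI1, a gene of sterol synthesis, at a site matched to spi-miR2275c-5p_ata with 12 tags in AET and 1 in MET (log2 ratio 3.66, 0.91 to 9.08), and MEE51, at a site of spi-miR396b-p5_osa with 7 in AET and 1 in MET (log2 ratio 2.89, -0.07 to 8.38, an interval that holds 0). A site on Solyc01g008800.1.1 matched to spi-miR482b-3p_stu had 0 tags in AET and 6 in MET (Fisher's exact test, p = 0.0316), and with the floor of 3 reads its log2 ratio of at most -0.92 was not past the fold threshold. Of the 179 sites, 38 were matched to at least 1 called sequence, none of them was called, and the most tags at any of them was 5. A site with that many, on Solyc12g014120.1.1, is matched to miR159 and had 5 tags in AET and 2 in MET (log2 ratio 1.40, -1.21 to 4.79). For the TCP2 site of miR319 there was 1 tag in AET and 0 in MET, and differences of this size were not detectable at this depth. Only 7 sites had at least 10 tags in the AET or the MET library, none of them matched to a called sequence. Among them, a PHB site of miR166 on Solyc02g069830.2.1 had 14 tags in AET and 12 in MET (log2 ratio 0.30, -0.92 to 1.55). The AGO1 site of miR168 had 10 in AET and 7 in MET (log2 ratio 0.59, -0.95 to 2.22). Other sites of uncalled miRNAs were thinly read, such as a PHB site of miR166 on Solyc02g024070.2.1 with 0 in AET and 4 in MET.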

How the data were processed

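Small RNAs and degradome tags of leaves from the NT, MET and AET groups were sequenced from 1 library each per temperature. The authors compared sRNA reads of 19 to 24 nt with miRBase after taking out matches to mRNA, repeats and known RNA classes. They deposited raw reads (estimated counts, a read with several matches being shared) and normalized reads, a score made by 1 factor per library. The degradome values deposited by the authors are library-scaled tags (TPB), a score that was turned back into reads by the value of 1 read (within 0.01 reads for 113 of 118 values in AET and 105 of 113 in MET) and rounded. Columns with the authors' log2 ratios and p-values hold their own comparisons and were not used. The sources used here do not name the build behind hairpin positions. Hairpin sequences were copied from the study's precursor list.

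Entries were reduced to distinct sequences. Normalized reads were rounded for both tests (Fisher's exact and chi-square), whose totals were those of the distinct listed sequences of the library. The study's methods name the tests and the threshold, not the totals. Intervals of ratios are conditional binomial, from rounded raw reads. Groups were formed by the miR number in the name. Target names of groups stand for the families, and whether each sequence acts on such targets was not tested. The rule for named sequences took, per class and direction, the 8 called with the largest ratios and the 8 with the most reads, called ones at 0 reads in a library, the 10 most abundant, the called and the 3 most abundant members of each group, and hairpin pairs with a call or ratios 1 apart. Of these, a selection is named, and others named were chosen after their values were seen. Members, lists and tests were chosen with earlier results of these data known. The calling rule was tested on simulated data. Alternatives were 3 scalings, other totals, filters and thresholds, Benjamini-Hochberg adjustment and, added after seeing the data, 1 more scaling, the arm comparison, a choice of sequences by their NT reads and leaving out conserved sequences without a position. Python 3.11.15, scipy 1.17.1, numpy 2.4.6, pandas 2.3.3 and matplotlib 3.10.9 were used.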

Additional observations from a re-analysis of the deposited data

How the results depend on the processing

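No paired analysis was possible because each temperature has 1 sRNA library, and for the same reason no replicate could be left out. Conserved sequences called higher numbered 34, and 18 with Benjamini-Hochberg adjustment, 62 with no fold threshold and 14 where the 95% interval had to lie past a fold of 2. Conserved sequences called lower numbered 57, and 95 with no fold threshold and 24 with the interval rule. With the interval rule the predicted sequences gave 10 higher and 4 lower, beside 25 and 7. With at least 10 tags at a site, 1 cleavage site was called in place of 2, since fewer sites were tested. With only the sequences of at least 10 normalized reads in NT, added after seeing the data, conserved sequences gave 12 higher and 39 lower, and predicted ones 4 higher and 4 lower, since fewer sequences were tested. All other planned and added alternatives kept each of these counts within 1.5 times its value. Scaling to the valid reads of the libraries moved every log2 ratio by -0.29, so that the median over all sequences became -0.28, and gave 64 higher and 74 lower calls. spi-miR159_csi (log2 ratio -1.04) and the 21 nt spi-miR6024 (-1.18) were then called lower, and spi-miR166m_gma, spi-miR9479-5p and spi-miR1886a-p5_stu were no longer called higher. Scaling to the summed listed reads without the most abundant sequence, added after seeing the data, moved log2 ratios by 0.12 and gave 67 higher and 55 lower calls. Of the 133 sequences followed under the 3 planned scalings and the Benjamini-Hochberg adjustment, no called ratio changed sign, 4 ratios that were not called turned negative on valid reads, and 35 sequences lost their call with the adjustment. The cause of the other changes was not tested.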
